A study of Mus musculus with 21 samples.

Results

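The cytosolic ribosomal protein genes are followed here in sorted Nestin-EGFP positive cells of mice exposed to valproic acid (VPA) before birth. Members were chosen by symbol: Rpl or Rps with a number and an optional short suffix, Rplp0 to Rplp2, and Rpsa. The rule found 84 of the 24322 symbols listed in each library, 33 of the small subunit and 51 of the large subunit.

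RNA sequencing was done on GFP-positive cells that had been sorted from C57BL/6 mice carrying the Nestin-EGFP transgene, in which the reporter marks neural stem and progenitor cells. VPA mice came from dams given VPA by mouth at 300 mg per kg per day on embryonic days 12, 13 and 14, and Control mice came from dams given the methylcellulose vehicle on the same days. The groups were VPA and Control at embryonic day 15 (E15, forebrain), VPA and Control at postnatal day 5 (P5, dentate gyrus of the hippocampus), and VPA with voluntary running (VPA+Run), VPA and Control at 12 weeks (12w, dentate gyrus). Each of the 7 groups had 3 libraries (n = 3). No running group without VPA was analysed here, and the tissue changes together with the age between E15 and P5. Values are FPKM, fragments per kilobase of transcript scaled to the total of the library, so a value is a share of the library and not an amount per cell.

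Nes, the gene whose regulatory sequence drives the reporter, lay between 14.2 and 20.1 FPKM at E15, with overlap between VPA and Control libraries. At P5 it was 9.89 to 11.1 FPKM in VPA and 11.5 to 13.4 FPKM in Control libraries, without overlap. At 12w it was 8.60 to 12.7 FPKM in VPA+Run, 7.86 to 12.4 FPKM in VPA and 10.6 to 18.7 FPKM in Control libraries, with overlap. The 12w libraries were the less even ones. They had 12019 to 15210 genes above 0, against 16116 to 17601 in the younger libraries, and replicates within a 12w group correlated at 0.785 to 0.89 across genes, against 0.941 to 0.972 in the younger groups. Small RNA genes held 13.0% to 27.7% of the summed FPKM at 12w, highest in VPA+Run replicate 3, against 12.9% to 16.7% at E15 and P5. In bulk samples of this kind, fewer cells of a type and less RNA per cell cannot be told apart.

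The ribosome is built of a small subunit, which reads the mRNA, and a large subunit, which joins the amino acids, and each protein subunit is normally present as a single copy per ribosome apart from the stalk proteins. Ribosomal protein mRNAs are abundant in growing cells, and in mammals most of them start with a C followed by pyrimidines, the 5′ terminal oligopyrimidine motif, through which mTOR and LARP1 control their translation. In the nervous system, neural stem cells alter protein synthesis when they leave quiescence and when they differentiate. A few members have a paralogue that can take the same place in the ribosome, of which Rpl22 and Rpl22l1 are the best studied pair: in mouse cells Rpl22 protein lowers the level of Rpl22l1 mRNA.

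RefSeq start regions on GRCm38.p6 were found for 63 of the 84 members, in 75 windows reaching from 250 bases before to 50 bases after an annotated start. Below are 8 of them, cut to 40 bases before and 20 bases from the start, for the members that the results turn on: the 4 that differed between ages in Control mice (Rpl10, Rpl15, Rpl31, Rps26), members among those with the smallest p at 12w (Rps10, Rpl7a and, for running, Rps25) and the paralogue Rpl22l1. Capitals mark the longest unbroken run of at least 5 C or T near the start.
Rpl10, chrX:74270776-74270835, plus strand: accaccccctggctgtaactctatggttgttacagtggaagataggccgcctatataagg
Rpl15, chr14:18270967-18271026, minus strand: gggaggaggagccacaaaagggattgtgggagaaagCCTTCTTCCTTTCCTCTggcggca
Rpl31, chr1:39367811-39367870, plus strand: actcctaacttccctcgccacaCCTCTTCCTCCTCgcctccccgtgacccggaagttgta
Rps26, chr10:128626487-128626546, minus strand: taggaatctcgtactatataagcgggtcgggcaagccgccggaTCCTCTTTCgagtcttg
Rps10, chr17:27635225-27635284, minus strand: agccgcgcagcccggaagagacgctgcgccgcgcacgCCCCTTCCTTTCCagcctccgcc
Rpl7a, chr2:26910767-26910826, plus strand: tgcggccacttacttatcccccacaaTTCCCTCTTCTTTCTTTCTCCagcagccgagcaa
Rps25, chr9:44407674-44407733, plus strand: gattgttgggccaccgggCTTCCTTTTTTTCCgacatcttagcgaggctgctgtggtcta
Rpl22l1, chr3:28805468-28805527, plus strand: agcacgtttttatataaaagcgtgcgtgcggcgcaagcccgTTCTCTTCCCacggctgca

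A C at the annotated start followed by 4 pyrimidines was found in 13 of the 75 member windows (17.3%), against 2.505% of all 32851 windows of this length. The letters CTTT stood within 15 bases of the start on the transcript strand in 29.3% of the member windows, against 12.0% of all windows. CCGGAAG, the core that ETS factors such as GABPA bind, was present on either strand in 36% of the member windows and in 8.86% of all windows. CTCGCGAGA, a near-palindromic element, was present in 10.7% of the member windows and in 0.676% of all windows. These are matches of letters, and the annotated start may lie some bases from the start used in these cells. Of the 8 sequences shown, Rpl10 has no such run near the start, and Rpl31 and Rps25 have theirs before it. The 8 do not stand for all members. Among windows not shown, that of Rps3 has no such run near the start, and the run of Rplp0 begins 11 bases after it.

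In GENCODE vM21 on the same assembly, each member matched a single gene. Of the 84, 83 are annotated as protein coding, and Rps4l is a transcribed processed pseudogene. The members lie on 19 chromosomes, with 14 on chromosome 7. Of the members, 30 hold at least 1 small nucleolar RNA gene within their bounds.

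Most members were among the most abundant genes of these cells. Of the 84 members, 78 were above 0 in every library, 33 of the small and 45 of the large subunit, and 67 of those 78 ranked within the top 1000 genes by mean FPKM over the 21 libraries. The median of the mean levels was 235 FPKM for small subunit members and 160 FPKM for large subunit members above 0 throughout. Small subunit members with high mean levels included Rps15 (729 FPKM) and Rps9 (713 FPKM), and the highest of the large subunit were those of Rpl8 (731 FPKM), Rplp1 (715 FPKM) and Rpl41 (607 FPKM). Among members above 0 in every library, the lowest small subunit means were those of Rps27 (6.60 FPKM), the pseudogene Rps4l (34.3 FPKM) and Rps15a (34.4 FPKM), and the lowest of the large subunit were those of Rpl21 (27.4 FPKM), Rpl7l1 (31.2 FPKM) and Rpl17 (68.6 FPKM). The proteins of a ribosome are needed in equal number, but the authors' counting can divide reads between a gene and its retrocopies, so a low FPKM value need not mean a low mRNA level.

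For 6 large subunit members, a library listed an exact 0. Rpl10l, the testis paralogue of Rpl10, was listed at 0 in all 21 libraries. Rpl3l, the muscle paralogue of Rpl3, was listed at 0 in 17 libraries and reached at most 0.211 FPKM, and Rpl39l, the testis paralogue of Rpl39, was listed at 0 in 17 libraries and reached 4.83 FPKM in VPA+Run replicate 1. Rpl26, a core protein of the large subunit, was listed at 0 in 20 libraries and at 10.0 FPKM in Control E15 replicate 2. Rpl30 was listed at 0 in 5 of the 12w libraries and at 165 FPKM in another, VPA+Run replicate 2. Rpl34 was listed at 0 in 4 of the 12w libraries. Since every cell uses Rpl26, Rpl30 and Rpl34, a 0 there says only that the gene is listed at 0.

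A pair of these unsteady genes has a near-identical copy that held most of the signal. Rpl34 lay between 0 and 49.3 FPKM, while its copy Rpl34-ps1 lay between 295 and 675 FPKM. Rps27 lay between 0.0751 and 31.6 FPKM, while its copy Rps27rt lay between 177 and 366 FPKM. The values of Rpl34 and Rps27 are therefore uncertain, and so are those of Rpl30 and Rpl26. Within groups, the log2 FPKM of Rpl30, Rpl34 and Rps27 varied most (SD of 2.10, 1.70 and 1.39), and that of Rps15a, Rpl10 and Rps9 varied least among members above 0 throughout (SD of 0.133, 0.141 and 0.142).

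Taken as a sum, the members held between 3.16% and 5.40% of the FPKM of a library. At E15 their share was 4.34%, 4.34% and 4.48% in VPA libraries and 4.22%, 5.40% and 4.73% in Control libraries. At P5 it was 4.28%, 4.01% and 3.95% in VPA libraries and 4.01%, 3.90% and 4.07% in Control libraries. The groups overlapped at both of these ages. At 12w the share was 3.38%, 3.997% and 3.17% in VPA+Run libraries, 3.16%, 3.17% and 3.25% in VPA libraries, and 3.49%, 4.26% and 4.73% in Control libraries. The 3 VPA libraries at 12w were all below the 3 Control libraries, and the VPA+Run libraries spanned both. With small RNA genes left out of the sum, the 12w shares were 3.97%, 4.60% and 4.39% in VPA+Run libraries. They were 3.88%, 3.94% and 3.89% in VPA libraries, and 4.27%, 5.14% and 5.54% in Control libraries. VPA and Control libraries still did not overlap. The VPA+Run libraries no longer spanned both: all lay above the VPA libraries, and they overlapped with the Control libraries.

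**Figure D1:**
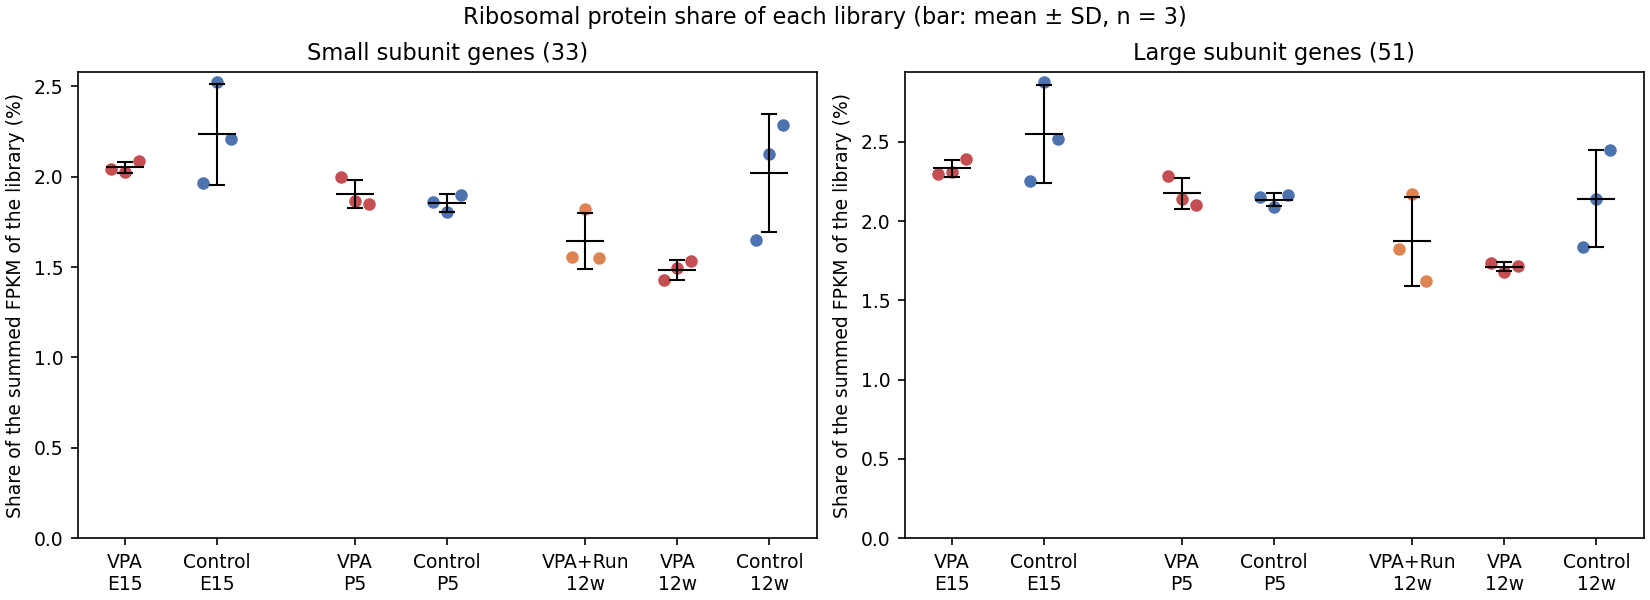
Share of the summed FPKM of each library held by the 33 small subunit genes (left) and the 51 large subunit genes (right), in percent. Points are the 3 libraries of a group and bars the mean ± SD; in the VPA libraries at 12w the small subunit share lay between 1.43% and 1.54%, below the 1.65% to 2.29% of the Control libraries.

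Both subunits had lower shares. In the 12w VPA libraries the small subunit share averaged 1.49% ± 0.0552 and in the Control libraries 2.02% ± 0.329 (SD, n = 3 each). The large subunit share averaged 1.71% ± 0.0277 in VPA and 2.14% ± 0.306 in Control libraries. The ratio of the small to the large subunit sum was 0.854, 0.839 and 0.958 in VPA+Run, 0.823, 0.888 and 0.894 in VPA, and 0.901, 0.993 and 0.935 in Control libraries at 12w, and stayed between 0.863 and 0.890 in the younger libraries.

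The comparison of VPA with Control at 12w asks whether cells of adult mice differ long after the exposure before birth. Of the 84 members, 80 could be tested, and 78 of these had lower values in VPA mice, with a median log2 fold change of -0.36 (-0.41 over small and -0.32 over large subunit members), against -0.01 over all 13847 genes tested. Lower values were found for 50.7% of all genes tested. No member passed the adjusted p of 0.05 (limma on log2(FPKM + 1) with Benjamini-Hochberg adjustment; smallest adjusted p = 0.415), in a comparison where no gene passed (percent called 0). At an unadjusted p under 0.05, 18 of the 80 members stood out, against 6.39% of all genes tested. The VPA and Control libraries did not overlap, with VPA lower, for 26 of the 80 members, 13 in each subunit, against 7.63% of all genes tested. No member had VPA higher without overlap, against 7.83% of all genes tested. The members rose and fell together within a library. Of the 78 above 0 throughout, 3 exceeded the mean of their group in Control replicate 1 and 72 in Control replicate 3. Counts of members, here and below, are therefore not counts of independent genes.

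By smallest p, Rps10 came first. Rps10 is a small subunit protein that, in human cells, is ubiquitinated on collided ribosomes. It measured 117, 138 and 102 FPKM in VPA libraries and 179, 284 and 247 FPKM in Control libraries. The groups did not overlap, and the log2 fold change was -0.97 ± 0.21 (SE; limma, adjusted p = 0.415).

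Rpl7a, a large subunit protein, measured 101, 102 and 71.9 FPKM in VPA libraries and 126, 140 and 173 FPKM in Control libraries (log2 fold change -0.67 ± 0.19, SE; limma, adjusted p = 0.557). Every VPA library was below every Control library. Rplp0, the base of the stalk that recruits elongation factors, measured 219, 266 and 246 FPKM in VPA libraries and 294, 458 and 423 FPKM in Control libraries (-0.66 ± 0.19; limma, adjusted p = 0.557). Rpl17, which lies by the exit of the peptide tunnel, measured 47.4, 38.6 and 45.0 FPKM in VPA libraries and 66.1, 60.1 and 84.4 FPKM in Control libraries (-0.66 ± 0.19; limma, adjusted p = 0.557). These groups did not overlap either, and Control replicate 1 was the lowest Control library for Rps10, Rpl7a and Rplp0.

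Members of the stalk, of the mRNA entry site and of the 5S particle had lower mean values as well. Rplp1, a stalk protein, averaged 564 FPKM in VPA and 777 FPKM in Control libraries, without overlap. Rps3, at the mRNA entry, averaged 236 ± 28.4 FPKM in VPA and 366 ± 76.4 FPKM in Control libraries, also without overlap. Rpsa, a small subunit protein that is also known as the laminin receptor, averaged 79.6 FPKM in VPA and 101 FPKM in Control libraries, without overlap. Rps6, the S6 kinase substrate, averaged 92.0 FPKM in VPA and 125 FPKM in Control libraries, and Rps4x, the X-linked small subunit protein, 297 FPKM in VPA and 387 FPKM in Control libraries, with overlap. Rpl11 and Rpl5 bind the 5S rRNA together and can hold back Mdm2. Rpl11 averaged 129 FPKM in VPA and 166 FPKM in Control libraries and Rpl5 84.1 FPKM in VPA and 92.2 FPKM in Control libraries, both with overlap. Rpl3, a protein close to the peptidyl transferase centre, averaged 92.5 FPKM in VPA and 98.8 FPKM in Control libraries. The adjusted p of these 8 genes lay between 0.567 and 0.977 (limma).

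The members that did not share the lower values were few. Rpl22l1 (log2 fold change 0.50 ± 0.33, SE) and Rpl34 (0.66) were the 2 tested members with higher values in VPA libraries, and for Rpl34 the libraries included values listed at 0. Rps27l, the p53-regulated paralogue of Rps27, had a log2 fold change of -0.03, and Rpl7l1, the paralogue of Rpl7 that acts in ribosome assembly, of -0.01; both turned to slightly positive values when small RNA genes were left out, and Rps27l also under quantile scaling. The pseudogene Rps4l averaged 23.7 FPKM in VPA and 37.9 FPKM in Control libraries.

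**Figure D2:**
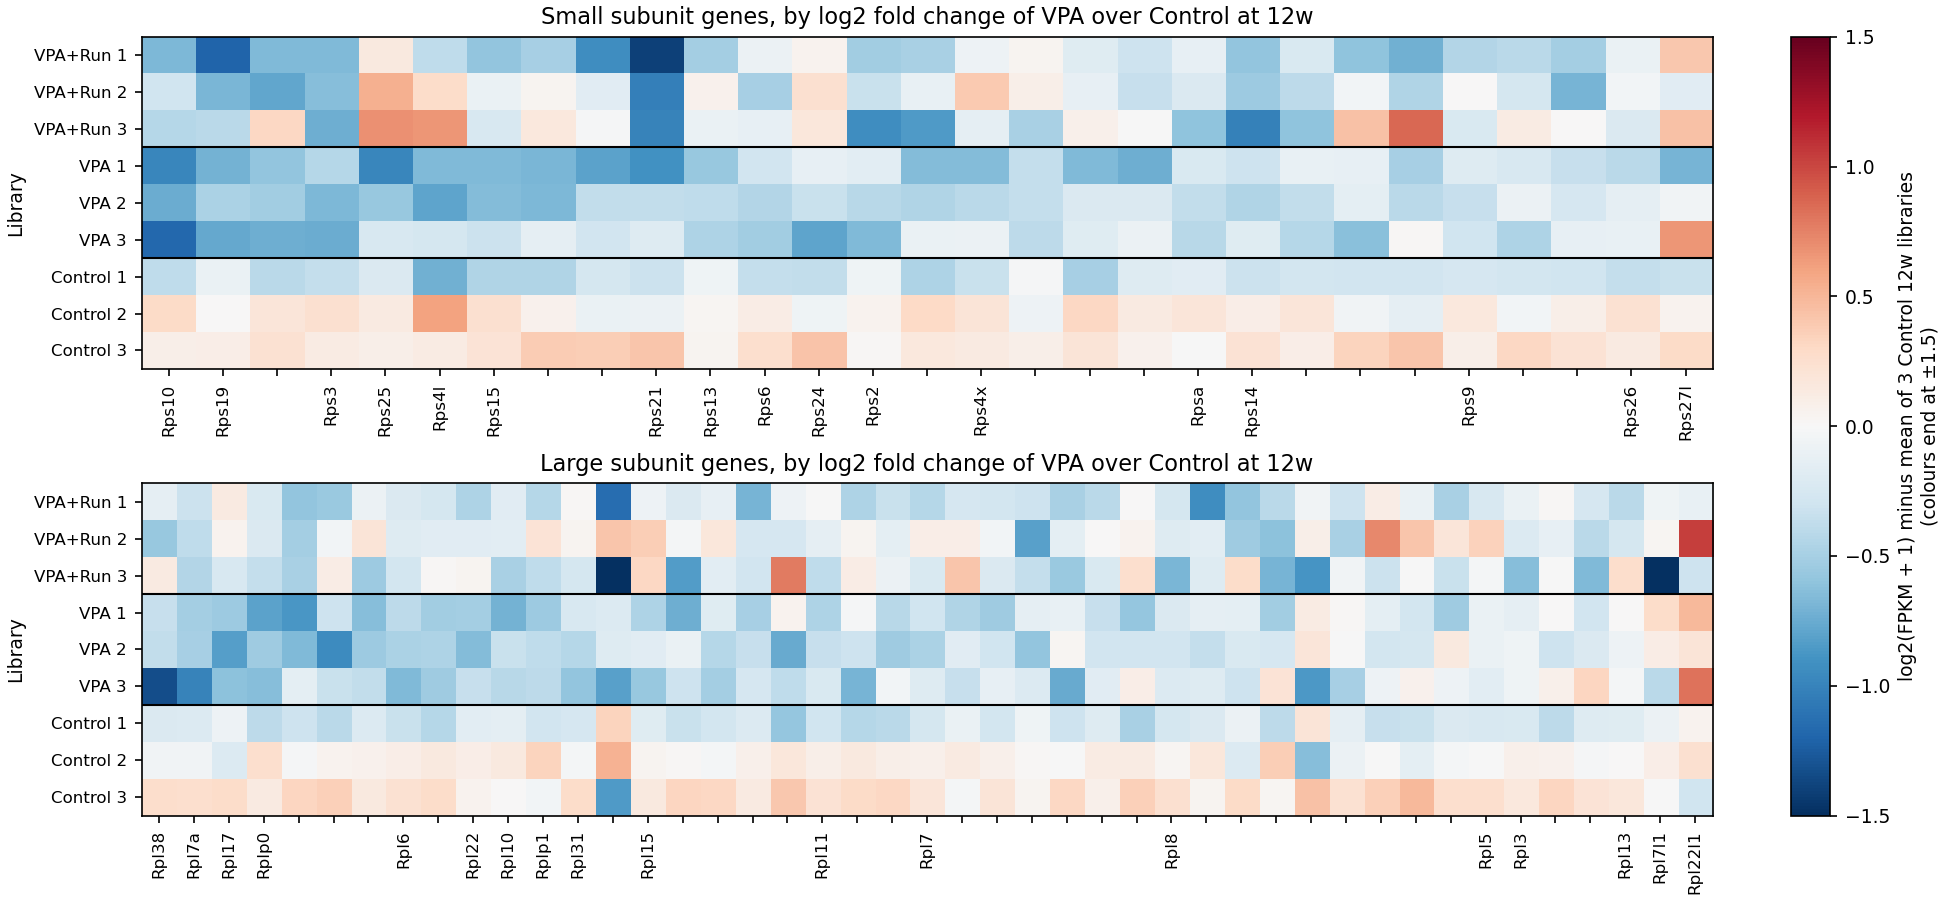
Log2(FPKM + 1) of 29 small subunit (top) and 45 large subunit members (bottom) in the 9 libraries at 12w, minus the mean of the 3 Control libraries. The genes drawn were above 0 in every library, Rps27 is left out, names are given for some of the genes described in the text, and genes run from the lowest to the highest log2 fold change of VPA over Control; blue cells fill most of the VPA rows, Rpl22l1 at the right end is higher in VPA, and Control replicate 1 is the bluest of the Control rows.

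Libraries weighed on this result unevenly. Without Control replicate 1 the median log2 fold change of the members was -0.49, and over the removal of each of the 9 libraries it lay between -0.49 and -0.28. When the spread was estimated from all 21 libraries instead of the 9 at 12w, the same fold changes gave 13 members with an adjusted p under 0.05, all lower in VPA, among them Rps3, Rps10, Rps13, Rps19, Rps25, Rpl6, Rpl7a, Rpl10, Rpl17, Rpl22 and Rplp0. In that fit 250 of the 14662 genes tested were called lower and 283 higher. Its spread includes the more even E15 and P5 libraries, so its p-values at 12w may be too small. Within groups, the median SD of the members' log2 values was 0.26 at 12w and 0.083 at P5 (VPA and Control).

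Markers of other cells were compared between the same groups. The summed FPKM of 5 newborn neuron markers was 605 to 765 in VPA and 950 to 1086 in Control libraries at 12w, with 5 of 5 lower by mean log2. For 5 endothelial markers it was 39.0 to 102 in VPA and 97.6 to 270 in Control libraries, and for 5 pericyte markers 628 to 915 in VPA and 899 to 2055 in Control libraries. For 5 fibroblast markers it was 4.05 to 13.5 in VPA and 17.3 to 39.99 in Control libraries. For 6 microglia markers it was 21.3 to 39.2 in VPA libraries, with Aif1 at 0 in all 3. In Control replicates 2 and 3 it was 22.3 and 38.1, within the VPA range, and in Control replicate 1 it was 199. For 6 markers of the oligodendrocyte lineage it was 1279 to 2226 in VPA and 1050 to 1294 in Control libraries. For 4 astrocyte markers, 4 of 4 lower by mean log2, it was 204 to 292 in VPA and 258 to 535 in Control libraries. For 8 neural stem cell markers, 6 of 8 lower, it was 813 to 972 in VPA and 827 to 1676 in Control libraries. No marker was called at 12w, and the groups overlapped except for newborn neurons and fibroblasts. The part of these cells in the ribosomal protein values was not tested.

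Running was compared within the VPA mice at 12w, which asks whether voluntary running of exposed mice goes with other levels. Of the 80 tested members, 55 had higher values in VPA+Run than in VPA libraries, and the median member had a log2 fold change of 0.16, against -0.05 over all genes tested, of which 54.2% were lower; none passed the adjusted p of 0.05 (limma, smallest adjusted p = 0.147; percent called 0; 6 of 80 at an unadjusted p under 0.05, against 11.3% of all genes tested). The libraries did not overlap for 11 members with VPA+Run higher (6.98% of all genes tested) and for 2 members with VPA+Run lower (8.48%).

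Rps25, a small subunit protein needed for initiation at some viral internal entry sites, measured 135, 176 and 197 FPKM in VPA+Run libraries and 61.1, 82.1 and 103 FPKM in VPA libraries. No library overlapped between the groups (log2 fold change 1.05 ± 0.22, SE; limma, adjusted p = 0.147), and the Control libraries measured 105, 133 and 129 FPKM. Rpl17 measured 76.1, 72.3 and 58.8 FPKM in VPA+Run and 47.4, 38.6 and 45.0 FPKM in VPA libraries, again without overlap (0.65 ± 0.19; limma, adjusted p = 0.264). Rpl15, a large subunit protein, measured 73.9, 101 and 96.6 FPKM in VPA+Run and 56.2, 69.1 and 52.4 FPKM in VPA libraries (0.60 ± 0.19; limma, adjusted p = 0.290). Rps24 averaged 308 ± 20.1 FPKM in VPA+Run and 211 ± 47.3 FPKM in VPA libraries (SD, n = 3 each), and for these 3 genes too no library overlapped. In the fit of all 21 libraries Rps25, Rpl17 and Rpl15 passed, with VPA+Run higher. That fit called 710 of the 14662 genes tested higher and 988 lower, so 3 of 80 members was no larger a share.

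Rps21 went the other way. This small subunit protein measured 159, 207 and 210 FPKM in VPA+Run libraries and 225, 326 and 370 FPKM in VPA libraries (log2 fold change -0.66 ± 0.25, SE; limma, adjusted p = 0.356). Rps14, whose human gene is lost in the 5q deletion anaemia, measured 404, 420.5 and 303 FPKM in VPA+Run libraries and 495, 446 and 537 FPKM in VPA libraries. For neither gene did the groups overlap. Beside these values, the summed FPKM of 8 neural stem cell markers was 1251 to 1758 in VPA+Run and 813 to 972 in VPA libraries, that of 4 astrocyte markers 403 to 515 in VPA+Run and 204 to 292 in VPA libraries, and that of 6 oligodendrocyte lineage markers 872 to 935 in VPA+Run and 1279 to 2226 in VPA libraries. Their part in the comparison of running was not tested.

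Against Control mice, VPA+Run libraries had lower values for 67 of 80 members, with a median log2 fold change of -0.22 (-0.07 over all genes tested, of which 55.9% were lower). No member passed (limma, smallest adjusted p = 0.612; percent called 0; 11 of 80 at an unadjusted p under 0.05, against 7.76% of all genes tested). The libraries did not overlap for 13 members with VPA+Run lower (7.24% of all genes tested) and for 1, Rps25, with VPA+Run higher (5.83%). The smallest p was that of Rps21, whose Control libraries measured 337, 396 and 564 FPKM (log2 fold change -1.14 ± 0.25, SE; limma, adjusted p = 0.612). Rps19, mutated in Diamond-Blackfan anaemia in humans, measured 52.1, 74.4 and 90.6 FPKM in VPA+Run and 112, 121 and 129 FPKM in Control libraries (-0.77 ± 0.21). Rps3 averaged 225 ± 7.91 FPKM in VPA+Run and 366 ± 76.4 FPKM in Control libraries, Rps14 376 ± 63.8 FPKM in VPA+Run and 620 ± 118 FPKM in Control libraries, and Rps2 67.1 ± 14.0 FPKM in VPA+Run and 101 ± 4.23 FPKM in Control libraries (SD, n = 3 each). These 5 were the members with an adjusted p under 0.05, all lower, in the fit of all 21 libraries. That fit called 523 of the 14662 genes tested lower and 363 higher. The comparisons at 12w share their libraries, so their values are set side by side and not correlated. VPA+Run replicate 3, which had the highest small RNA share, had the fewest genes above 0 and a member share of 3.17%, or 4.39% without small RNA genes. Of the markers tested in VPA+Run against Control, 5 of 5 of microglia (median log2 fold change -1.73) and 5 of 5 of fibroblasts (-1.01) had lower values and 4 of 4 of choroid plexus (1.02) and 4 of 4 of astrocytes (0.31) higher values in VPA+Run libraries. None of these markers was called, and their part in the member values was not tested.

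**Figure D3:**
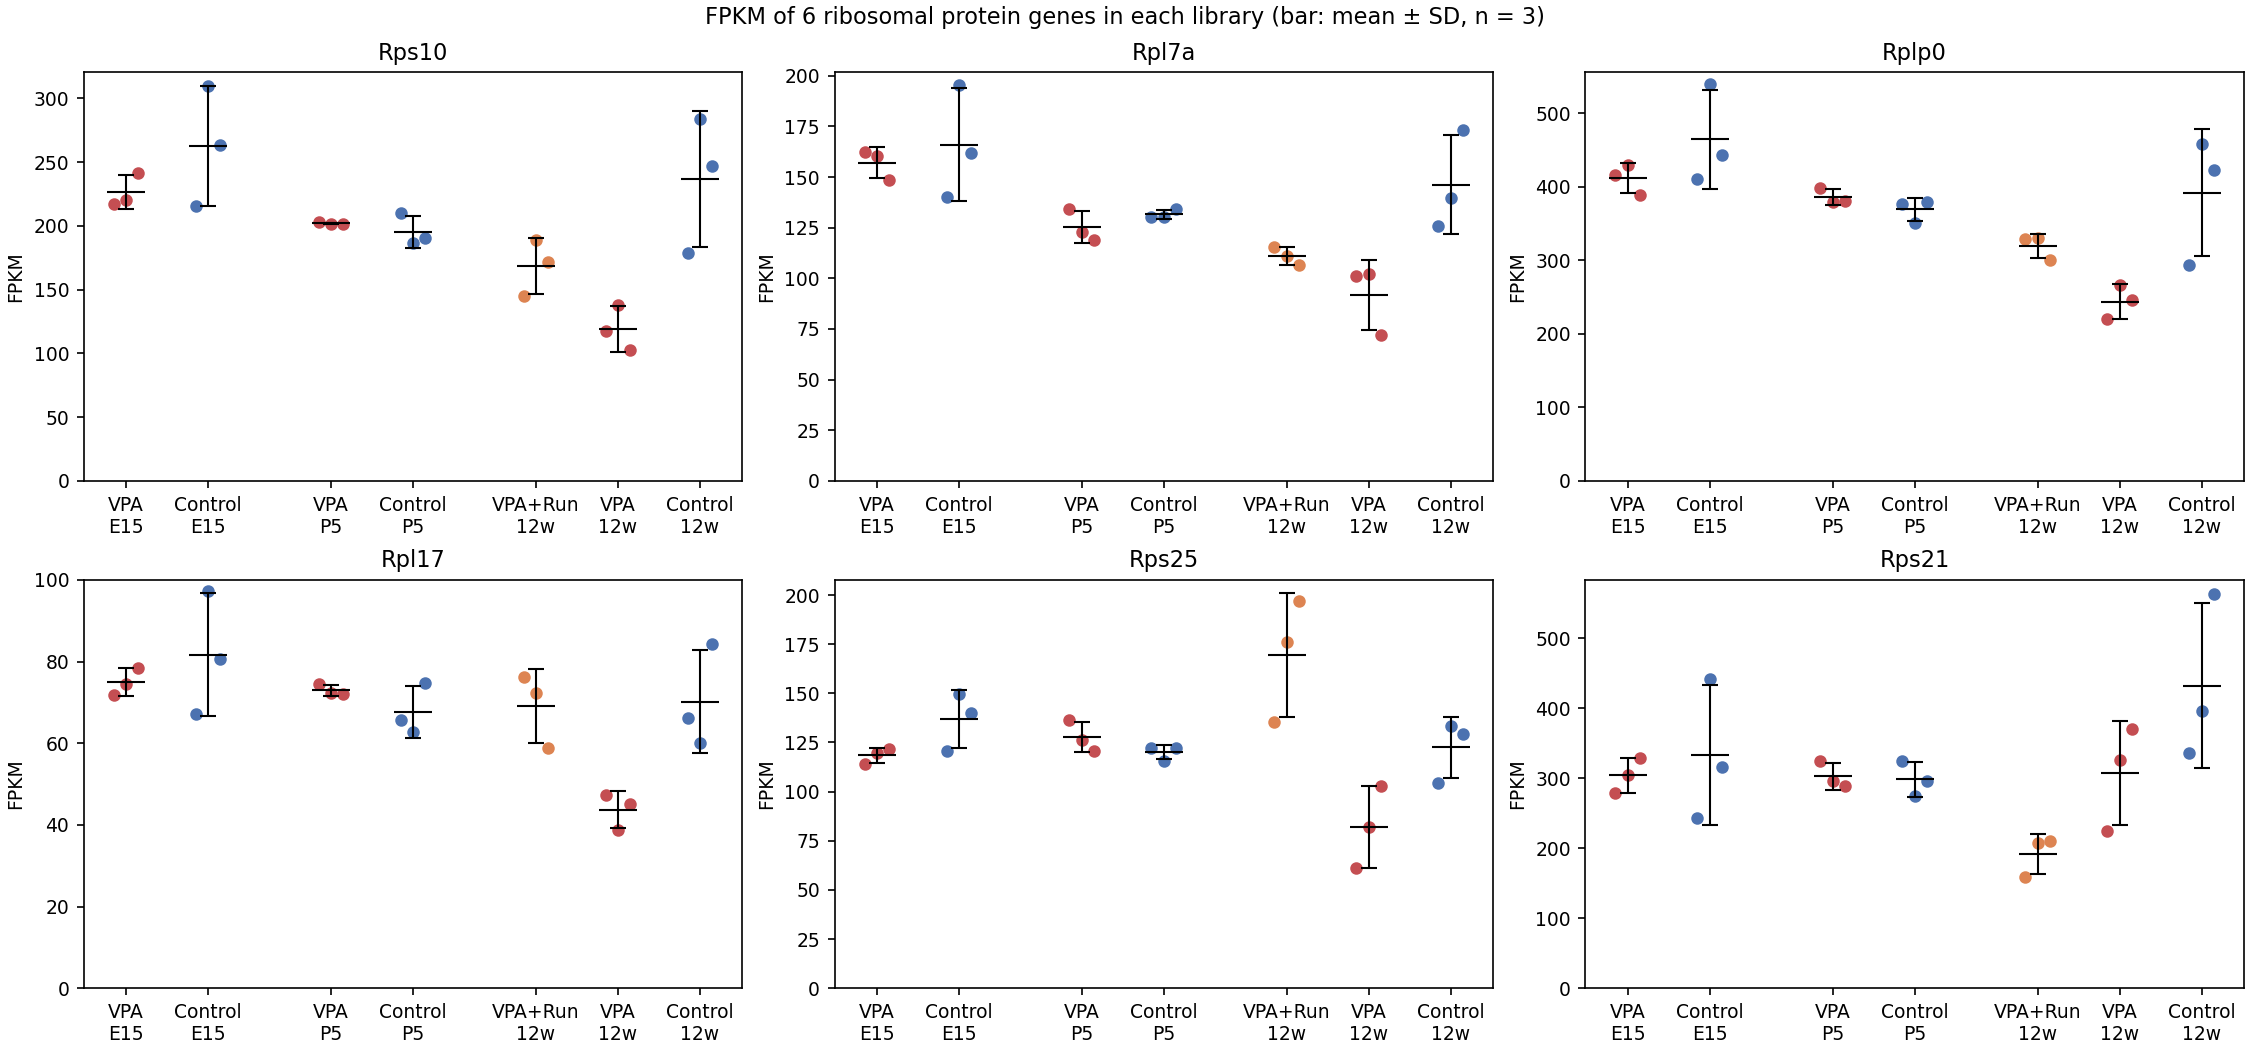
FPKM of Rps10, Rpl7a, Rplp0, Rpl17, Rps25 and Rps21 in every library, with the mean ± SD of each group of 3. At 12w the VPA libraries of the first 5 genes lie below all Control libraries, whereas for Rps21 the VPA+Run libraries, at 159 to 210 FPKM, are the lowest.

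At P5 the differences between VPA and Control mice were small. Higher values in VPA libraries were found for 58 of 80 tested members, and the median member had a log2 fold change of 0.05 (0.00 over all 13328 genes tested, of which 50.9% were lower). Rpl22l1 alone passed the test, and it fell in VPA mice (1 of 80 members, against 1.34% of all genes tested called lower, 0.9% called higher and 2.24% in either direction); 4 of 80 members had an unadjusted p under 0.05, against 24% of all genes tested. Rpl22l1 measured 104, 111 and 105 FPKM in VPA libraries and 125, 126 and 129 FPKM in Control libraries. The groups did not overlap, and the log2 fold change was -0.25 ± 0.05 (SE; limma, adjusted p = 0.0495). The value was steady across settings, between -0.28 and -0.23, but its adjusted p lay just under the threshold and rose above it in 13 of 15 other settings, among them the removal of any 1 of the 6 libraries.

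Rpl22, the main gene of this pair, was on the other side. It measured 140, 136 and 136 FPKM in VPA libraries and 117, 121 and 134 FPKM in Control libraries, without overlap, but did not pass (log2 fold change 0.15 ± 0.06, SE; limma, adjusted p = 0.186). The ratio of Rpl22l1 to Rpl22, chosen after these values were seen, was 0.743, 0.815 and 0.770 in VPA libraries and 1.07, 1.04 and 0.964 in Control libraries at P5. At 12w the same ratio was 1.36, 1.22 and 1.52 in VPA libraries and 0.786, 0.744 and 0.528 in Control libraries, so that VPA libraries were the lower ones at P5 and the higher ones at 12w, without overlap at either age. The log2 ratio differed by -0.40 ± 0.06 (SE) at P5 and by 1.01 ± 0.20 at 12w, each with an exact two-sided permutation p of 0.1, the smallest that 3 against 3 libraries allow. In VPA+Run libraries the ratio spanned 0.527 to 1.57. At E15 it was 0.777, 0.926 and 0.893 in VPA libraries and 0.852, 0.775 and 0.814 in Control libraries, which overlapped (exact p = 0.3).

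**Figure D4:**
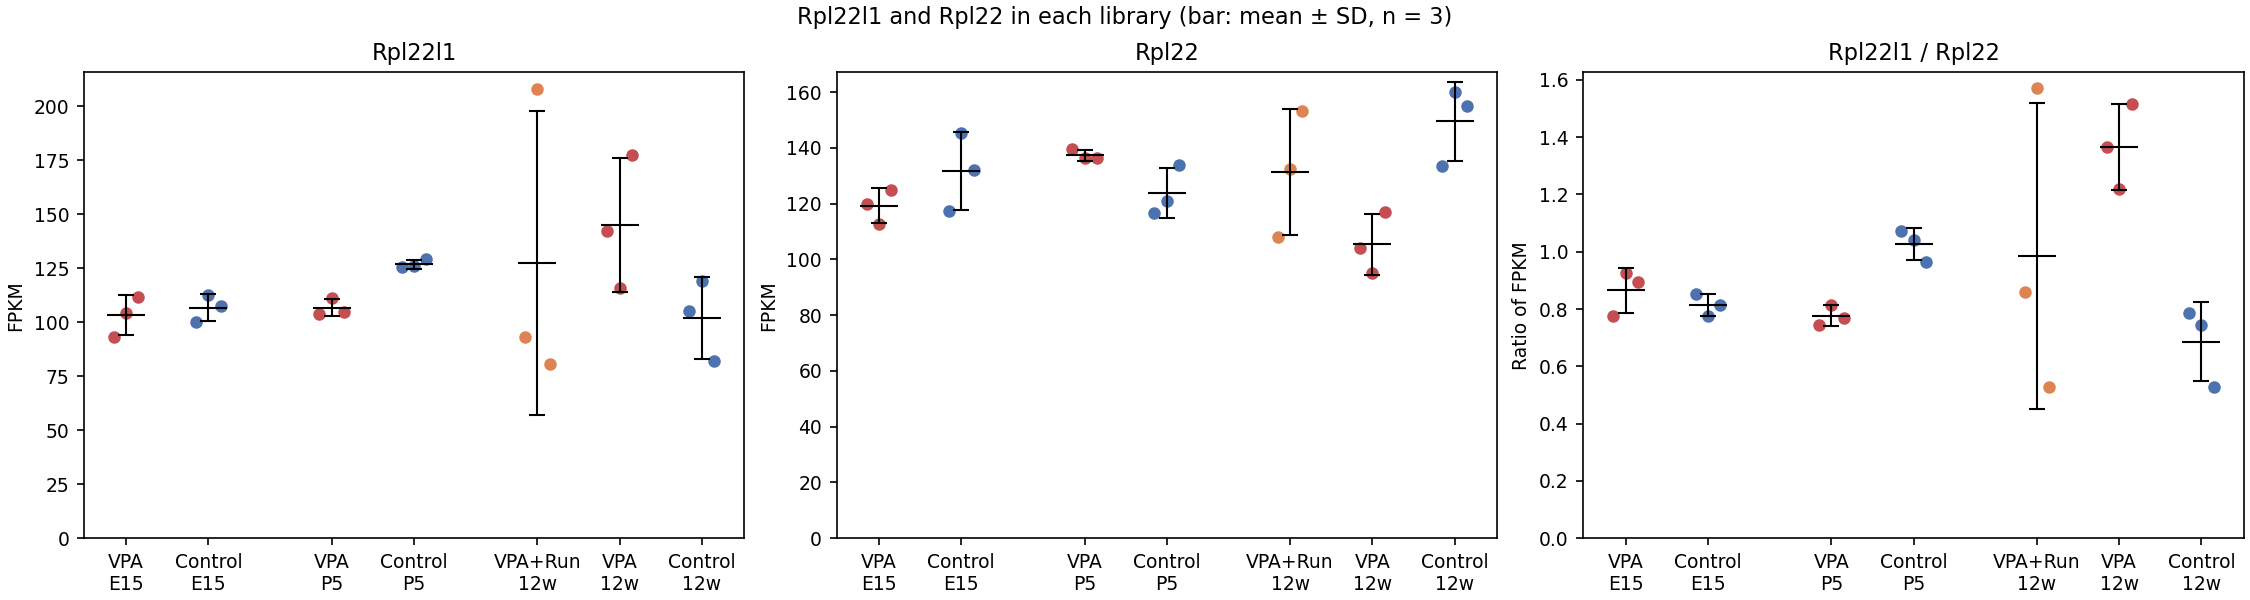
FPKM of Rpl22l1 (left) and Rpl22 (middle) and their ratio (right) in every library, with the mean ± SD of each group of 3. The ratio lies at 0.743 to 0.815 in VPA and at 0.964 to 1.07 in Control libraries at P5, and at 1.22 to 1.52 in VPA and at 0.528 to 0.786 in Control libraries at 12w.

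By smallest p, Rpl38, Rpl7, Rpl22 and Rps4l followed Rpl22l1 at P5. Rpl38, which in mouse is needed for the translation of certain Hox mRNAs, averaged 550 ± 52.2 FPKM in VPA and 464 ± 21.7 FPKM in Control libraries (SD, n = 3 each; log2 fold change 0.24; limma, adjusted p = 0.150). Rpl7, a large subunit protein, averaged 352 ± 6.54 FPKM in VPA and 321 ± 8.68 FPKM in Control libraries, and Rps4l 35.1 ± 3.52 FPKM in VPA and 29.5 ± 3.92 FPKM in Control libraries. The libraries did not overlap for 9 members with VPA higher (13.8% of all genes tested) and for Rpl22l1 with VPA lower (15.6%). Of 8 neural stem cell markers at P5, 8 had lower values in VPA libraries, with a summed FPKM of 2449 to 2528 in VPA and 2524 to 2916 in Control libraries; for 5 pericyte markers the sum was 133 to 246 in VPA and 85.0 to 101 in Control libraries, for 5 fibroblast markers 14.1 to 18.5 in VPA and 5.23 to 8.38 in Control libraries, and for 4 red cell markers 82.8 to 186 in VPA and 501 to 690 in Control libraries. For 5 markers of dividing cells, 5 of 5 lower, the sum was 61.7 to 80.4 in VPA and 85.5 to 95.0 in Control libraries. The test called 1 neural stem cell, 1 dividing cell and 2 red cell markers lower in VPA (limma). It called 2 pericyte and 2 fibroblast markers higher. The part of these cells in the ribosomal protein values at P5 was not tested.

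At E15, a day after the last dose, 73 of 80 members had lower values in VPA mice, with a median log2 fold change of -0.13 (-0.01 over all 12345 genes tested, of which 52.6% were lower). No member passed (limma, smallest adjusted p = 0.370), in a comparison where 0.0405% of all genes tested were called lower and none higher; 2 of 80 members had an unadjusted p under 0.05, against 10.5% of all genes tested. The median rested on Control replicate 2, in which all 78 members above 0 throughout exceeded the mean of their group. Without that library the median was -0.02. The libraries did not overlap for 3 members, all with VPA lower: Rpl30, Rps7 and Rps9 (9.32% of all genes tested), and for none with VPA higher (8.19%).

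Rpl30 measured 7.93, 3.95 and 0.639 FPKM in VPA libraries and 12.8, 22.6 and 18.4 FPKM in Control libraries (log2 fold change -2.15 ± 0.58, SE; limma, adjusted p = 0.370). Rpl34 measured 10.98, 20.2 and 17.4 FPKM in VPA libraries and 6.50, 11.6 and 6.39 FPKM in Control libraries (0.91 ± 0.28; limma, adjusted p = 0.386). Both stand among the uncertain, unsteady genes described above. Rps25, Rps2 and Rps7, which followed, had log2 fold changes between -0.28 and -0.20. In VPA E15 replicate 3 the summed FPKM of 5 choroid plexus markers was 11144, against at most 155 in the Control libraries at E15; that library was close to the other VPA libraries in the share held by the members.

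Between ages, Control libraries at P5 had lower values than Control libraries at E15 for 74 of 80 members, with a median log2 fold change of -0.25, while the median of all 14662 genes tested was 0.14 and 37.6% were lower. The test called 4 members, all lower at P5 (5% of 80; 6.33% of all genes tested were called lower and 14.4% higher), and 20 of 80 had an unadjusted p under 0.05, against 30.4% of all genes tested. Rpl10, which joins the large subunit late in its assembly, fell to 135, 122 and 129 FPKM at P5, against 151, 193 and 169 FPKM at E15 (log2 fold change -0.40 ± 0.12, SE; limma, adjusted p = 0.0219). Rpl31, at the tunnel exit, fell to 78.7, 73.5 and 77.4 FPKM at P5, against 88.7, 120.4 and 109 FPKM at E15 (-0.46 ± 0.14; limma, adjusted p = 0.0242). Its copy Rpl31-ps12 averaged 107 FPKM at P5 and 137 FPKM at E15 in Control libraries, with overlap. Rpl15 fell to 72.8, 72.9 and 79.7 FPKM at P5, against 87.4, 112 and 104 FPKM at E15 (-0.42 ± 0.13; limma, adjusted p = 0.0321). Rps26, which touches the mRNA upstream of the start codon, fell to 590, 604 and 662 FPKM at P5, against 714, 1004 and 812 FPKM at E15 (-0.43 ± 0.15; limma, adjusted p = 0.0464).

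The P5 and E15 Control libraries did not overlap for these 4 and for 22 further members with P5 lower, 26 in all (22.1% of all genes tested), and for Rpl22l1 with P5 higher (44.3%). Without Control E15 replicate 2, none of the 4 passed and the median was -0.12; without Control E15 replicate 1, 10 members passed. In the latter fit 774 of all genes tested were called lower and 1778 higher. The count was 0 without Control E15 replicate 3 or Control P5 replicate 2, 1 (Rpl10) without Control P5 replicate 1 and 2, Rpl15 among them, without Control P5 replicate 3. The tissue, forebrain at E15 and dentate gyrus at P5, cannot be told apart from the age. Markers moved strongly between these groups: 5 of 8 neural stem cell markers (median log2 fold change 2.13), 5 of 6 of the oligodendrocyte lineage (3.85), 4 of 4 of astrocytes (4.51) and 3 of 5 of pericytes (1.78) were called higher at P5, and 4 of 5 of newborn neurons (-1.09) and 3 of 5 of mature neurons (-0.60) lower (limma). In each of these 2 neuron lists, 1 of 5 markers was called higher at P5. Their summed FPKM was 2524 to 2916 at P5 and 522 to 633 at E15 for neural stem cells, and 1147 to 1359 at P5 and 2176 to 2713 at E15 for newborn neurons. The part of the cell makeup in the member values was not tested.

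From P5 to 12w, in the same tissue, 60 of 80 members had higher values at 12w, with a median log2 fold change of 0.12 (-0.04 over all genes tested, of which 53.5% were lower). No member passed (limma, smallest adjusted p = 0.0684; 6 of 80 at an unadjusted p under 0.05, against 25.4% of all genes tested), while 7.26% of all genes tested were called higher and 5.35% lower. Rpl10 came closest, at 147, 181 and 165 FPKM at 12w and 135, 122 and 129 FPKM at P5, without overlap (0.34 ± 0.12, SE; limma, adjusted p = 0.0684). Rpl13 averaged 232 ± 28.8 FPKM at 12w and 179 ± 1.06 FPKM at P5, Rps15 879 ± 216 FPKM at 12w and 647 ± 10.8 FPKM at P5, and Rps21 432 ± 118 FPKM at 12w and 298 ± 24.7 FPKM at P5 (SD, n = 3 each). The libraries did not overlap for 6 members with 12w higher (18.4% of all genes tested) and for 2, Rpl22l1 and Rps2, with 12w lower (19.1%). Without Control 12w replicate 1, 6 members passed with 12w higher and the median was 0.27; without Control 12w replicate 3 the median was 0.00. The fit without replicate 1 called 1194 of all genes tested higher and 1094 lower. Among the markers, 5 of 5 of endothelium (median log2 fold change 3.13), 5 of 5 of pericytes (2.76), 4 of 6 of the oligodendrocyte lineage (1.43) and 3 of 6 of microglia (2.17) were called higher at 12w (limma). Of 5 markers of dividing cells, 5 had lower values at 12w and 1 was called. Called lower too were 2 of 8 neural stem cell, 2 of 4 astrocyte, 1 of 5 newborn neuron and 2 of 3 tested red cell markers. Another astrocyte marker and 2 of 5 fibroblast markers were called higher. For endothelium the summed FPKM was 97.6 to 270 at 12w and 2.36 to 5.07 at P5, and for pericytes 899 to 2055 at 12w and 85.0 to 101 at P5. Their part in the change with age was not tested.

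**Figure D5:**
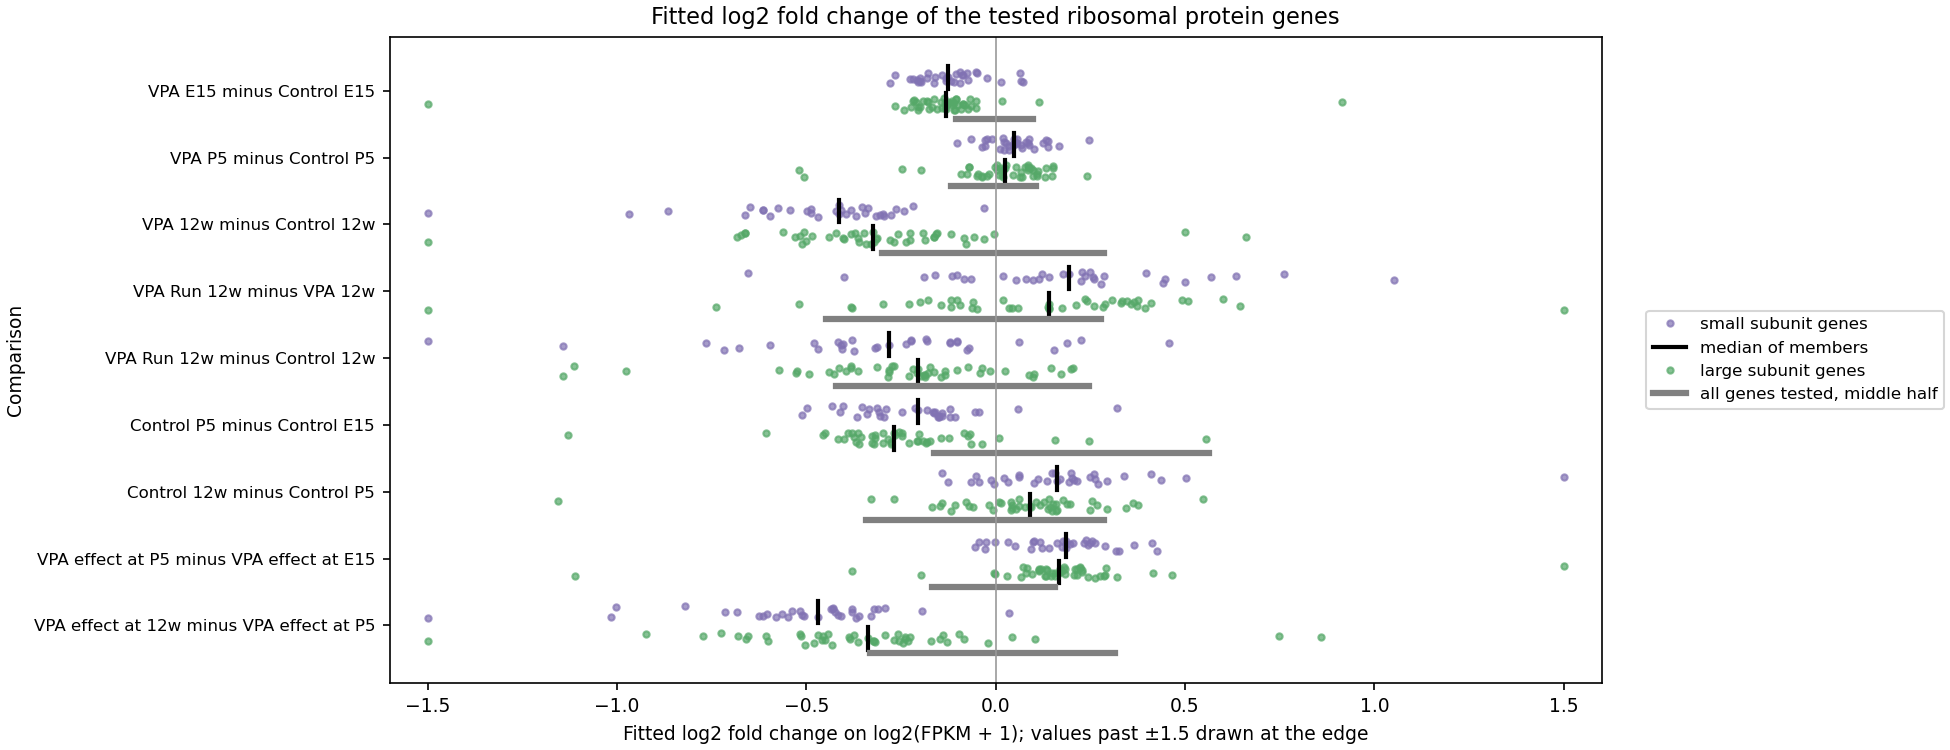
Fitted log2 fold change of the 80 tested members in each of the 9 comparisons, small subunit in purple and large subunit in green, with the median of each as a black line and the middle 50% of all genes tested as a grey bar. Points past 1.5 in either direction, 10 in all, are drawn at the edge; the medians are lowest for VPA minus Control at 12w and for the difference between the VPA effects at 12w and P5.

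Whether the effect of VPA differed between ages was tested as an interaction over all 21 libraries. This fit pools 1 spread over groups of unequal evenness. The members' median within-group SD of log2 values was 0.26 at 12w and 0.083 at P5 (VPA and Control). Its p-values do not take this into account and may be too small where 12w libraries enter. Between 12w and P5, 75 of 80 members had a more negative VPA effect at 12w, with a median difference of -0.42 on the log2 scale (0.00 over all genes tested, of which 49.9% were below 0). No member passed (limma, smallest adjusted p = 0.0641; 0.136% of all genes tested were called lower and 0.252% higher), and 29 of 80 had an unadjusted p under 0.05, against 10.5% of all genes tested. The smallest p was that of Rps10, with a difference of -1.02 ± 0.23 (SE; limma, adjusted p = 0.0641). Rpl22 (-0.65 ± 0.17; limma, adjusted p = 0.122), Rpl17 (-0.77) and Rplp0 (-0.73) were also among the 5 members with the smallest p, and the difference for Rpl22l1 was 0.75 ± 0.35 (limma, adjusted p = 0.463). Between P5 and E15, 70 of 80 members had a more positive VPA effect at P5, with a median difference of 0.18, and none passed (limma, smallest adjusted p = 1; no member at an unadjusted p under 0.05, against 1.93% of all genes tested; 0.0136% called higher and 0.0818% lower). Among the smallest p there were those of Rpl22 (0.29 ± 0.17, SE), Rps26 (0.32), Rpl38 (0.47) and Rpl7 (0.28).

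A fixed set of 18 tested members was followed in each comparison: Rplp0, Rplp1, Rpl3, Rpl5, Rpl11, Rps3, Rps6, Rpsa, Rps4x and the paralogue pairs. Of these 18, 17 were lower in VPA libraries at E15, 4 at P5 and 17 at 12w. Their log2 fold changes lay between -0.22 (Rpl11) and 0.02 (Rpl39) at E15 and between -0.25 (Rpl22l1) and 0.25 (Rps4l) at P5. At 12w they lay between -2.73 (Rps27, uncertain as above) and 0.50 (Rpl22l1). Between VPA+Run and VPA libraries, 14 of the 18 were higher in VPA+Run.

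The ribosomal proteins that the symbol rule leaves out were lower in VPA libraries at 12w in 4 of 4 cases, with a median log2 fold change of -0.40. Fau, which is made as a fusion with a ubiquitin-like protein, measured 162, 181 and 187 FPKM in VPA and 178, 317 and 306 FPKM in Control libraries. Gnb2l1 (Rack1), the scaffold on the small subunit head, measured 407, 452 and 385 FPKM in VPA and 505, 558 and 597 FPKM in Control libraries, without overlap. Rpl36al was lower as well, and none of the 4 passed.

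Among the wider translation genes, 32 of 39 elongation and initiation factors were lower in VPA libraries at 12w (median -0.20), and 31 of 39 were higher in VPA+Run than in VPA libraries (median 0.16). Mitochondrial ribosomal proteins, which serve a separate ribosome, had a median of -0.09 at 12w (48 of 77 lower) and ribosome biogenesis factors of -0.08 (31 of 57 lower). The mTOR, LARP1 and MYC list had a median of -0.07 (18 of 29 lower), p53 targets of -0.23 (10 of 16 lower), and small nucleolar RNA host genes of 0.29 (3 of 11 lower). The other lists differed in VPA+Run against VPA libraries. The median was -0.0015 for mitochondrial ribosomal proteins (38 of 77 higher) and 0.05 for biogenesis factors (30 of 57 higher). It was 0.09 for the mTOR, LARP1 and MYC list (19 of 29 higher) and -0.01 for p53 targets (8 of 16 higher). Small nucleolar RNA host genes had -0.90 (2 of 11 higher), and the ribosomal proteins outside the symbol rule -0.02 (2 of 4 higher). No gene of these 7 lists passed the test in the VPA or running comparisons within an age. Members that hold a small nucleolar RNA gene had a median of -0.38 (30 members) and the others of -0.35 (50 members) at 12w.

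Between ages in Control mice, some genes of these lists did pass, where 14.4% of all genes tested were called higher and 6.33% lower at P5 against E15, and 7.26% higher and 5.35% lower at 12w against P5. The shares of biogenesis factors called lower, 3 of 57 and 2 of 57, were no larger than these. At P5 against E15, 8 translation factors fell, among them Eef1a2, the neuronal form of the elongation factor that brings tRNA (log2 fold change -0.90; limma, adjusted p = 0.0245), and Eef1g (-0.66; limma, adjusted p = 0.00323), out of 39 tested and with none called higher. Of 57 ribosome biogenesis factors 3 fell, among them the RNA polymerase subunit Polr1d (-0.84) and the pre-rRNA processing factor Rrp1 (-0.57), and Gnb2l1 fell too (-0.44). Of the mTOR, LARP1 and MYC list, Sesn3 (2.06) and Deptor (1.48), both inhibitors of mTOR signalling, rose, and Mycl (-0.54) fell; of the p53 targets, Eda2r (1.41) and Phlda3 (1.02) rose and Plk2 (-1.23) fell. No mitochondrial ribosomal protein and no small nucleolar RNA host gene was called between P5 and E15. At 12w against P5, Myc (-1.32; limma, adjusted p = 0.00670; the proliferation regulator) and Mxd4 (-0.68), its antagonist, fell with 2 others of their list. Nmd3 (-1.35), the export adaptor of the large subunit, and Ubtf (-0.41), a factor of ribosomal DNA transcription, fell as the 2 called of 57 biogenesis factors. Of the translation factors, Eef1a2 (1.14) and Eif4a2 (0.48) rose and Etf1 (-0.71) and Eif4g2 (-0.40) fell. Of 77 mitochondrial ribosomal proteins, Mrpl27 (0.57) rose and Mrps30 (-0.58) fell, and 3 p53 targets rose, among them Perp (3.74) and Cdkn1a (2.35).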

How the data were processed

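RNA of sorted cells was measured in 21 libraries, 3 in each of 7 groups taken from the labels. The submitters' processing notes name mm10 and the tools Cuffdiff, Cufflinks, Bowtie2 and TopHat; the sources used here give no tool versions, strand or counting rules. The authors deposited FPKM values, 1 per symbol and library. FPKM is named in the headers of the 12w tables; for E15 and P5 it was inferred from equal genes, ranges and column sums. Read depth is therefore unknown, and no counting interval is given. It is not known whether the replicates came from separate litters or animals, so p-values measure only the spread between these samples, which may be technical.

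Values were analysed as log2(FPKM + 1), which understates changes of low genes, with limma 3.58.1 in R 4.3.3 (lmFit, eBayes with trend), over genes that reached 1 FPKM in 3 or more libraries, and adjusted by Benjamini-Hochberg over all genes tested, threshold 0.05. Fits held the 6 libraries of E15 or P5 or the 9 of 12w; age contrasts and interactions used all 21. The code was tested on simulated data. Members and lists were chosen with earlier results of these data known, so no list or score over the members was tested. Named members are, per comparison, the 5 largest changes called in each direction or, where fewer than 5 passed, the 5 with the smallest p; a fixed set of 18 with their paralogues; and the extremes of level and spread. Others are named for their roles or their place in a count of 5 or fewer, after their values were seen. A few genes that the rule names are not reported here by name; they stay in the fits and counts.

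At E15 the deviations of same-numbered VPA and Control libraries correlated at 0.126, 0.115 and 0.228 over genes, so the numbers may mark pairs there, with no label that says so; a block for them changed no member's call at E15. Alternatives were a minimum of 5 FPKM or none, a pseudocount of 0.1, other scalings, small RNA genes left out, a replicate block, no trend, another set of libraries and the removal of each library.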

Additional observations from a re-analysis of the deposited data

Results flagged for a closer look

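The ratio of Rpl22l1 to Rpl22 moved in opposite directions with VPA at P5 and at 12w. At P5 it was 0.743 to 0.815 in VPA and 0.964 to 1.07 in Control libraries, and at 12w 1.22 to 1.52 in VPA and 0.528 to 0.786 in Control libraries. The VPA effect on the log2 ratio at 12w minus that at P5 was 1.41. Every VPA library lay below every Control library at P5 and above every Control library at 12w, which is what singled it out; the difference itself was not tested, and the ratio was formed after the values of both genes were seen. The interaction was tested for each gene alone and missed the threshold for both (limma, adjusted p = 0.463 for Rpl22l1 and 0.122 for Rpl22).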

How the results depend on the processing

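The median log2 fold change of the members kept its direction in every comparison under all alternatives run, including the removal of each library. Counts of called members were less steady. At P5 the single call, Rpl22l1, was lost (0 called) with a minimum of 5 FPKM, with no minimum, with a pseudocount of 0.1, quantile scaling, the replicate block, no trend and all 21 libraries in the fit, and without any 1 library (0 to 0); it held with median-of-ratios scaling and with small RNA genes left out. With all 21 libraries in the fit, 13 members were called lower for VPA against Control at 12w, 3 higher for VPA+Run against VPA and 5 lower for VPA+Run against Control, against 0 of each. Of the 14662 genes tested there, 250, 710 and 523 were called in these directions. For Control P5 against E15, 4 called lower became 19 with median-of-ratios scaling, 1 with quantile scaling, 2 without the trend, 19 lower and 1 higher with only the 6 libraries compared, 6 with the replicate block, and 0 to 10 over removals of a library. Among all genes tested, 928 were called lower in the main fit, 1313 with median-of-ratios scaling, 1278 with quantile scaling and 878 without the trend. The fit of the 6 libraries called 2768 lower and 5265 higher. Median-of-ratios scaling moved the median of all genes there to 0.05, quantile scaling to -0.06, and the members' median to -0.37 and -0.15. For Control 12w against P5, quantile scaling called 1 lower (Rpl8), the fit of the 6 libraries 1 higher (Rps27) and removals 0 to 6 higher. Among all genes tested, quantile scaling called 844 lower, the fit of the 6 libraries 1192 higher and the removal of Control 12w replicate 1 1194 higher. For the 12w minus P5 interaction, quantile scaling and the removal of small RNA genes each called 1 lower (Rps10), and removals of a library called 0 to 7 (7 without Control 12w replicate 1, 2 without VPA 12w replicate 2). In the order given, these settings called 35, 20, 106 and 69 of all genes tested lower. For VPA against Control at 12w, Rps27l turned to 0.0162 under quantile scaling and to 0.0242 without small RNA genes, and Rpl7l1 to 0.0483 without small RNA genes. Over removals of a library, log2 fold changes spanned -0.38 to 0.30 for Rps27l, -0.15 to 0.19 for Rpl7l1 and -0.24 to 0.0087 for Rpl5 at 12w, -0.11 to 0.0183 for Rpl22l1 at E15, and -0.22 to 0.46 for Rpl22l1 in VPA+Run against Control. The cause of these changes was not tested. Outside E15 the correlation of same-numbered libraries stayed under 0.1, the limit set for a possible pair. Some came close to it: 0.0994 for replicate 1 of Control at 12w and P5, and 0.0943 for replicate 1 of VPA and Control at P5. The replicate block moved no call other than those given. Removing a library of the group outside the comparison from the 12w fits, and the alternatives for the shares, were added after the data were seen. Read depth is unknown; at 12w, where replicates varied most, the absence of calls does not show that the levels were equal.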
